A study of Oryza sativa with 80 samples.

Results

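Expansins are small secreted proteins of the plant cell wall, and 8 expansin genes were followed here across the mature rice leaf. They were chosen by locus: the alpha expansins EXPA1 (LOC_Os04g15840), EXPA2 (LOC_Os01g60770), EXPA4 (LOC_Os05g39990) and EXPA5 (LOC_Os02g51040), and a cluster of 4 beta expansins on chromosome 10 (LOC_Os10g40700, LOC_Os10g40710, LOC_Os10g40720 and LOC_Os10g40730). The 8 loci were taken from 42189 genes in the count table, and each of the 8 passed the filter on low counts when the segments of a leaf were summed. Measured values were not used to choose them from the table, although earlier results from these samples were known when the list was made.

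Expansins loosen the contacts between cellulose microfibrils and the matrix around them without cutting the polymers, and this lets a wall yield to turgor in acid conditions. The family has an alpha branch and a beta branch, and grasses carry many beta expansins, of which the pollen forms are known as group 1 allergens. In a grass leaf the cells expand near the base of the growing blade, so a fully elongated leaf is a tissue in which most expansion growth has ended.

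Rice seedlings (Oryza sativa) were raised in potting mix with a soil water content of 3 g/g (W, watered) or 1.5 g/g (D, a drought that limits growth). The third leaf was collected when elongation was complete, at 10 days in W and 12 days in D, either at 30 °C (W30 and D30) or after 30 min at 40 °C (W40 and D40). The blade was cut into 7 equal segments, and segments 2 (base side) to 6 (tip side) gave 1 poly(A) RNA-seq library each. Each of the 4 treatments had 4 replicates, each a pool of matched segments from 3 leaves, which makes 80 libraries from 16 pools of leaves. Because the droughted leaves were 2 days older, drought and leaf age cannot be told apart. The labels divide the pools into 2 batches: batch 1 held replicates 1 and 2 of W30, D30 and D40 but only replicate 1 of W40, and batch 2 held the rest.

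The libraries held 53398019 to 128636996 assigned reads. The label of leaf tissue was checked against 5 photosynthetic loci, whose summed level was 44531 to 75443 CPM per pool (the count of a gene scaled to library depth). It was also checked against 1 shoot meristem homeobox locus, which was at 0 in every library. These loci do not check whether elongation was complete. A set of 5 loci listed as markers of dividing cells summed to 4.45 to 12.9 CPM, nearly all of it from LOC_Os02g56130 (mean 7.44 CPM); the other 4 averaged 0.00580 to 0.122 CPM, and 1 of them failed the filter. In bulk tissue, fewer cells of a type and less RNA per cell cannot be told apart. Expansin levels were low: over the 80 libraries the mean level was between 0.0950 CPM (EXPA5) and 1.34 CPM (EXPA4), and 48 of the 80 libraries held no read of LOC_Os10g40710.

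Per length, the levels in well-watered leaves at 30 °C were led by EXPA4, at 1.95 ± 0.631 FPKM (SD, n = 4), a unit that scales fragments by gene length and depth. EXPA2 followed at 1.06 ± 0.536 FPKM and the beta expansin LOC_Os10g40720 at 0.913 ± 0.876 FPKM. EXPA4 was above EXPA2 in each W30 pool (2.15, 1.03, 2.48 and 2.13 against 1.61, 0.383, 1.33 and 0.904 FPKM). The order of EXPA2 and LOC_Os10g40720 changed between pools, and no test between genes was run. LOC_Os10g40700 and EXPA1 were both at 0.220 FPKM, with SDs of 0.127 and 0.0844. LOC_Os10g40730 (0.0861 FPKM), LOC_Os10g40710 (0.0639 FPKM) and EXPA5 (0.00754 FPKM) came last. In D30 the order was different: EXPA1 had the highest mean, 1.87 ± 1.88 FPKM, with an SD as large as the mean. Its D30 replicates 1 to 4 measured 0.215, 0.333, 3.04 and 3.92 FPKM, against 1.12, 1.08, 1.36 and 0.125 FPKM for LOC_Os10g40720. In the authors' batch-corrected FPKM the D30 means of these genes were 1.06 and 1.02. In D40 EXPA1 again had the highest mean, at 0.914 ± 0.498 FPKM.

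Heat shock of well-watered leaves was accompanied by lower levels of 4 of the 8 expansins. EXPA2, EXPA4, LOC_Os10g40700 and LOC_Os10g40720 fell (edgeR quasi-likelihood test on whole-leaf sums with batch as a term, adjusted p below 0.05), and none of the 8 rose. These 4 calls of 8 compare with 35.1% of all 25103 genes tested that changed in either direction and 18.7% that fell. The median log2 change was -1.86 over the 8 expansins and -0.08 over all genes. In the same comparison 1 of the 4 dividing-cell loci tested fell (median -0.90 over the 4), as did 1 of 3 loci listed as secondary wall cellulose synthases (median -3.50), and their part in the expansin differences was not tested.

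EXPA4 had the largest estimated fall of the 4. In the W30 pools it measured 3.83, 1.84, 4.43 and 3.80 CPM in replicates 1 to 4, and in the W40 pools it measured 0.302, 0.300, 0.0840 and 0.196 CPM. Every W40 pool was below every W30 pool, in both batches. The log2 change was -3.93 (SE 1.06, adjusted p = 0.0115 in edgeR). EXPA2 measured 2.65, 0.629, 2.19 and 1.48 CPM in W30 and 0.182, 0.117, 0.0668 and 0.133 CPM in W40. Here too the groups did not overlap, and W30 replicate 2 was the lowest control for both genes. The log2 change of EXPA2 was -3.69 (SE 1.01, adjusted p = 0.0122 in edgeR).

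Of the beta expansins, LOC_Os10g40720 measured 3.84, 0.861, 1.16 and 0.496 CPM in W30 and 0.273, 0.227, 0.0646 and 0.218 CPM in W40. The groups did not overlap, and W30 replicate 1 stood well above the other 3 controls. Its log2 change was -2.51 (SE 0.85, adjusted p = 0.0348 in edgeR). LOC_Os10g40700 measured 0.541, 0.137, 0.295 and 0.227 CPM in W30 and 0.0455, 0.0655, 0.0711 and 0.0823 CPM in W40, again without overlap, with a log2 change of -2.03 (SE 0.65, adjusted p = 0.0273 in edgeR). Both beta calls were close to the threshold. Without 1 pool, the adjusted p of LOC_Os10g40700 passed 0.05 in 6 cases, from 0.0516 without W30 replicate 4 to 0.0841 without W40 replicate 1. That of LOC_Os10g40720 did so in 6 cases too, up to 0.102 without W30 replicate 3, so that between 2 and 4 of the 8 were called. EXPA2 and EXPA4 were called whichever pool was left out. With batch 2 alone the log2 changes were -4.03 for EXPA2 and -4.31 for EXPA4, both called, and with batch 1 alone, which has 1 W40 pool, they were -3.19 and -3.25, neither called.

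The other 4 expansins gave no call for heat in watered leaves. EXPA5 was near 0 in both groups, at 0.0112 ± 0.0108 CPM in W30 and 0.0104 ± 0.00808 CPM in W40 (SD, n = 4). LOC_Os10g40710 averaged 0.0982 CPM in W30 and 0.0865 CPM in W40, and its W40 replicate 1 held no read. LOC_Os10g40730 averaged 0.205 and 0.0788 CPM. EXPA1 measured 0.226, 0.160, 0.377 and 0.210 CPM in W30, but 0.451 CPM in W40 replicate 1 and 0.0234, 0.0345 and 0.0291 CPM in the other 3. The batch 1 pool of W40 was above all controls and the 3 batch 2 pools were below all of them. The log2 change of EXPA1 was 1.21 within batch 1 and -3.24 within batch 2, and without W40 replicate 1 it was -3.98 (adjusted p = 0.00130 in edgeR). A treatment by batch term, added after these pools had been seen, called 2 of 8 for this comparison (EXPA1 and LOC_Os10g40710), where 23.6% of all genes passed. Its batch 1 arm of W40 is a single pool, so it restates where that pool lay and is given as a description. For the other whole-leaf comparisons the same term called 1 of 8 each, against 12% of all genes for D30 against W30, 27.4% for D40 against D30, 25.3% for D40 against W40 and 40.6% for D40 against W30. These counts are near or below what the shares over all genes give, and nothing about expansins is read from them.

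**Figure D1:**
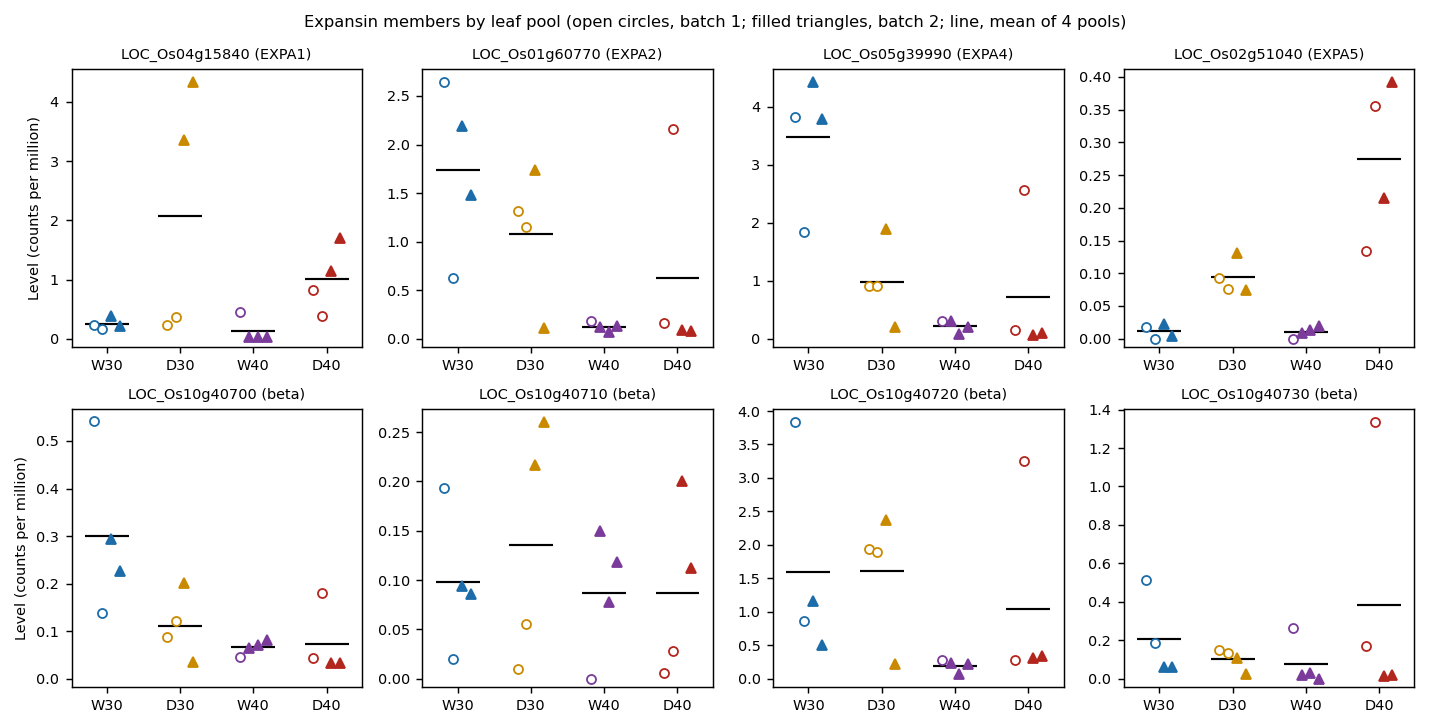
Level of each of the 8 expansins in the 16 leaf pools, in CPM, by treatment; open circles are batch 1, filled triangles batch 2 and the line is the mean of 4 pools. EXPA2, EXPA4, LOC_Os10g40700 and LOC_Os10g40720 are low in all 4 W40 pools, D40 replicate 2 stands above the other D40 pools for these genes (2.16 CPM for EXPA2), and EXPA1 is high in the 2 batch 2 pools of D30 (3.36 and 4.33 CPM).

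In droughted leaves the same heat shock gave no expansin call. None of the 8 passed in D40 against D30 (edgeR), 1 had an unadjusted p below 0.05 and DESeq2 called 1 (EXPA5), while 34.4% of all genes changed. A single pool decided this count. EXPA2 measured 1.32, 1.15, 1.74 and 0.115 CPM in D30 and 0.161, 2.16, 0.0884 and 0.0840 CPM in D40. EXPA4 measured 0.906, 0.904, 1.90 and 0.207 CPM in D30 and 0.145, 2.57, 0.0573 and 0.104 CPM in D40. LOC_Os10g40720 measured 1.95, 1.89, 2.37 and 0.218 CPM in D30 and 0.278, 3.26, 0.306 and 0.341 CPM in D40. In each of the 3 genes D40 replicate 2 was above every D30 pool and the other 3 D40 pools were below 3 of the 4, D30 replicate 4 being the low one.

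Without D40 replicate 2, which is a batch 1 pool, EXPA2 (log2 change -3.23, adjusted p = 0.00631), EXPA4 (-3.26, adjusted p = 0.00375) and LOC_Os10g40720 (-2.16, adjusted p = 0.0450) were called lower in D40 than in D30 in edgeR. With all pools the same log2 changes were -1.23 (SE 0.97), -0.84 (SE 1.04) and -0.99 (SE 0.81). The share of all genes called without D40 replicate 2 is not given here, so the number of expansin calls is not set against it. LOC_Os10g40700 also had its highest D40 value in replicate 2, at 0.179 CPM against 0.0334 to 0.0445 CPM in the others, and LOC_Os10g40730 measured 1.33 CPM there against 0.0143 to 0.170 CPM. The summed dividing-cell markers of D40 replicate 2, in the main LOC_Os02g56130, were 7.49 CPM. They were 7.62 CPM in the other batch 1 pool of D40 and 4.66 and 4.45 CPM in its batch 2 pools. The part of these markers in the expansin difference was not tested.

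Drought at 30 °C was accompanied by a rise of EXPA5 (LOC_Os02g51040), 1 call of 8, where 10.3% of all genes changed and 5.27% rose; the median log2 change was -0.45 over the 8 expansins and 0.00 over all genes. EXPA5 measured 0.0178, 0, 0.0228 and 0.00421 CPM in W30 and 0.0929, 0.0758, 0.131 and 0.0743 CPM in D30. The groups did not overlap, although the level stayed low: the 4 W30 pools held 19 reads in all and the 4 D30 pools 168. The filter on low counts asks for 4 pools at its minimum, which EXPA5 reached in 1 W30 pool, 0 W40 pools and all 4 pools each of D30 and D40. It was therefore tested only because it is high in droughted leaves, and its drought calls, in whole leaves and in segments, describe these levels and are not independent of the filter. With no filter, edgeR gave an adjusted p of 0.0203 for D30 against W30 and 0.00219 for D40 against W40. The log2 change was 3.06 (SE 0.77, adjusted p = 0.0221 in edgeR). The adjusted p was 0.0780 without W30 replicate 4, 0.0516 without D30 replicate 1 and 0.0528 without D30 replicate 3, and without a batch term it was 0.0778; with the replicate number as a block it was 0.0655. The change was similar in size within batch 1 (3.19) and within batch 2 (2.90).

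EXPA5 was also higher with drought under heat. It measured 0, 0.00936, 0.0129 and 0.0194 CPM in W40 and 0.133, 0.356, 0.215 and 0.392 CPM in D40. All 4 D40 pools were above all W40 pools and above all D30 pools. Against W40 the log2 change was 4.87 (SE 0.82, adjusted p = 0.00339 in edgeR), again the 1 call among the 8, where 14.1% of all genes changed and 8.37% rose; the medians were 1.50 over the 8 and -0.01 over all genes. Against D30 it was 1.56 (SE 0.67, adjusted p = 0.0886), which missed the threshold. D40 against W40 and D40 against D30 share the D40 pools. EXPA5 entered both through the droughted pools, since the 4 W40 pools held 18 reads in all.

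EXPA1 had its highest levels in droughted pools, and these divided by batch. In D30 it measured 0.237 and 0.369 CPM in the batch 1 pools and 3.36 and 4.33 CPM in the batch 2 pools, against 0.160 to 0.377 CPM in W30. Thus the batch 1 pools of D30 lay within the range of W30 and the batch 2 pools were well above it. Over all pools the log2 change was 2.95 (SE 1.09, adjusted p = 0.104 in edgeR), not a call, although DESeq2 called it (adjusted p = 0.0109). Within batch 1 it was 0.63 (adjusted p = 0.470) and within batch 2 it was 3.70 (adjusted p = 9.49e-05). Leaving out W40 replicate 1, which enters the shared estimates of batch and spread, gave a log2 change of 2.40 (adjusted p = 0.0199) for D30 against W30.

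In D40, EXPA1 measured 0.823, 0.384, 1.15 and 1.69 CPM. Every D40 pool except replicate 2 was above all W40 pools, and replicate 2 was below the 0.451 CPM of W40 replicate 1. The log2 change of D40 against W40 was 2.75 (SE 1.11, adjusted p = 0.109 in edgeR) over all pools, 0.42 within batch 1 and 5.59 within batch 2. Against D30 it was -0.93 over all pools, 1.00 within batch 1 and -1.35 within batch 2 (the last with an adjusted p of 0.00626). The heat difference of EXPA1 thus had opposite signs in the 2 batches. Without W40 replicate 1, D40 was called above W40 (adjusted p = 0.000522) and above W30 (adjusted p = 0.0118) for EXPA1.

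Summed levels of wall synthesis loci also differed by pool. The summed level of 3 loci listed as secondary wall cellulose synthases was 0.645 and 0.556 CPM in the batch 1 pools of D30 and 3.78 and 18.7 CPM in its batch 2 pools. In D40 it was 1.32 and 0.996 CPM in batch 1 and 12.3 and 20.4 CPM in batch 2, and it was 0.343 to 1.65 CPM in W30 and 0.192 to 0.318 CPM in W40. For 5 loci listed as primary wall cellulose synthases the sum was 36.4 and 35.9 CPM in batch 1 of D30, 104 and 160 CPM in batch 2 of D30, 105 to 137 CPM in D40, 25.4 to 68.5 CPM in W30 and 45.0 to 49.5 CPM in W40. Their part in the EXPA1 levels was not tested. As separate results, 3 of the 3 secondary wall loci and 3 of the 5 primary wall loci rose in D40 against W40 and none fell. Of all genes, 14.1% changed and 8.37% rose in that comparison. All 5 primary wall loci rose in D40 against W30, where 46.5% of all genes changed in either direction. LOC_Os07g10770, for example, rose by 1.93 on the log2 scale (adjusted p = 0.00624 in edgeR).

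Drought and heat together, D40 against W30, gave 2 calls of 8, where 46.5% of all genes changed: EXPA5 rose (log2 change 4.62, adjusted p = 0.000494 in edgeR) and LOC_Os10g40700 fell (-2.11, SE 0.64, adjusted p = 0.0159). The median was -1.02 over the 8 and -0.08 over all genes. EXPA4, at 1.84 to 4.43 CPM in W30 and 0.0573 to 2.57 CPM in D40, narrowly missed (-2.71, SE 1.08, adjusted p = 0.0530). The log2 change of this gene (LOC_Os05g39990) was -1.08 within batch 1 and -5.60 within batch 2, the treatment by batch term being below the threshold here (adjusted p = 0.0392), and it was called without W30 replicate 2 (0.0395), D30 replicate 3 (0.0247) or D40 replicate 2 (0.000264). Without D40 replicate 2 the calls came to 5 of 8, with EXPA2, EXPA4 and LOC_Os10g40720 lower as well, and DESeq2 called 5. The shares of all genes called in these 2 fits are not given here, so nothing about expansins is read from the counts. The LOC_Os10g40700 call was lost without W30 replicate 1, D40 replicate 3 or D40 replicate 4, with adjusted p from 0.0543 to 0.0719. A test of whether the heat effect differed between watered and droughted leaves called none of the 8, with 0 at an unadjusted p below 0.05 and 0 in DESeq2, and edgeR called 0% of all genes. The interaction estimates were 2.46 (SE 1.36) for EXPA2 and 3.08 (SE 1.46) for EXPA4, and with a spread of this size a smaller heat effect in drought was not distinguishable from an equal one.

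**Figure D2:**
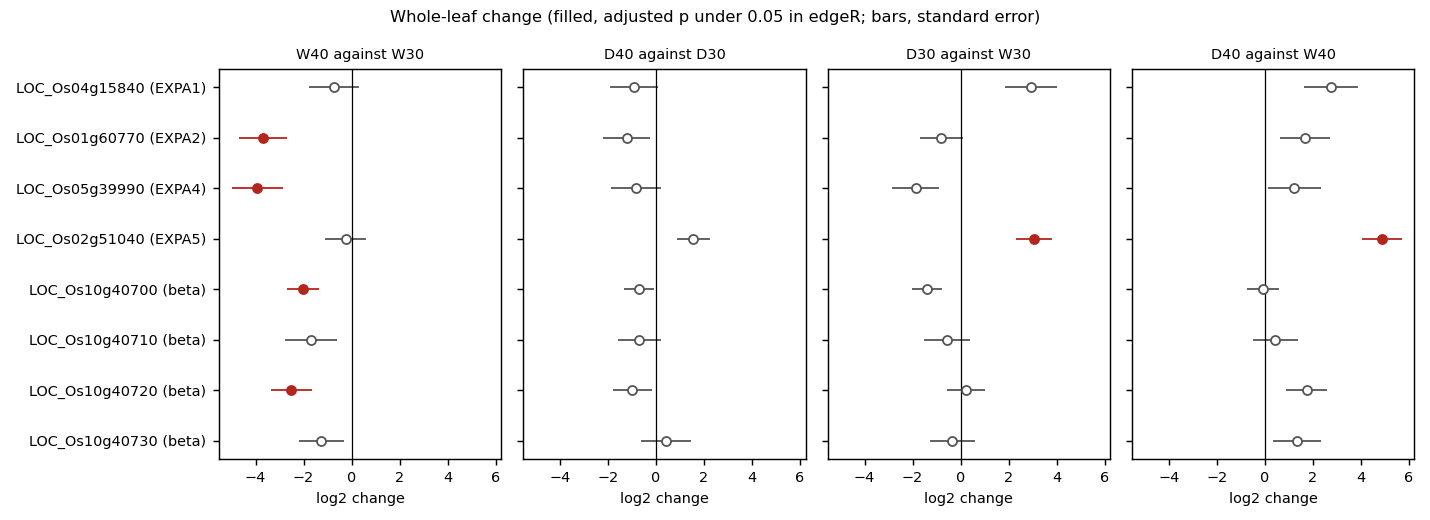
Whole-leaf log2 change of each expansin for heat in watered leaves, heat in droughted leaves, drought at 30 °C and drought under heat; bars are standard errors and filled points passed an adjusted p of 0.05 in edgeR. Filled points are 4 falls in W40 against W30 and EXPA5 in both drought comparisons (3.06 and 4.87), and D40 against D30 has none.

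Along the blade, 4 to 6 of the 8 expansins were lower toward the tip, depending on the treatment. Between segments 2 and 6 of the same pools, every expansin that passed the test was lower toward the tip: 4 of 8 in W30, 6 of 8 in D30, 5 of 8 in W40 and 4 of 8 in D40 (edgeR with the pool as a block, 23888 genes tested). Of all genes, 31.2%, 18.6%, 35% and 24.5% changed in the same 4 treatments, and 14.1%, 8.38%, 16.9% and 10.6% were lower at the tip. The median log2 change of the 8 was -1.89, -2.93, -2.54 and -1.86, against medians between 0.00 and 0.03 over all genes. LOC_Os10g40700, LOC_Os10g40710 and LOC_Os10g40720 were called in all 4 treatments. LOC_Os10g40710 passed the filter only through libraries nearer the base, and LOC_Os10g40700 failed it when segment 6 was fitted by itself. The calls of both, which these counts include, are therefore not independent of the filter. Without the pool block, batch being a term in its place, the counts were 2, 3, 3 and 0. In W40 the estimates of EXPA5 (3.33) and LOC_Os10g40730 (1.89) were positive and not called.

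Other listed loci were lower toward the tip as well. Of 5 primary wall cellulose synthase loci, 4, 5, 2 and 4 were called lower in W30, D30, W40 and D40, and 1 was called higher in W40. Of 3 secondary wall loci, 3, 0, 1 and 3 were lower, and of 5 photosynthetic loci, 3, 1, 3 and 1. Of the 4 dividing-cell loci tested, 1 was lower in each of W30, D30 and W40 and 0 in D40, with medians of -0.55, -0.01, -0.47 and -0.54 on the log2 scale. Their part in the expansin differences was not tested.

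LOC_Os10g40720 had the steepest profile of the well-measured genes in W30. Its level was 3.97 ± 4.17 CPM in segment 2, 1.90 ± 1.31 in segment 3, 1.11 ± 1.27 in segment 4, 0.761 ± 0.656 in segment 5 and 0.187 ± 0.111 CPM in segment 6 (SD, n = 4). Pools differed widely at the base, from 0.605 to 10.1 CPM, while the tip side stayed between 0.0693 and 0.332 CPM, so that even the lowest base library was above the highest tip library. The log2 change was -4.04 (SE 0.68, adjusted p = 6.92e-06 in edgeR) in W30, -2.99 in D30, -4.44 in W40 and -1.85 in D40. In D40 the adjusted p was 0.0303, and it was 0.116 without replicate 1 and 0.257 without replicate 3.

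LOC_Os10g40710 was detected mainly at the base. Segment 2 held 525 of its 723 reads, segment 3 held 149 and segment 4 held 45. Segment 5 held 0 reads in 16 libraries, and segment 6 held 4 reads in 1 D40 library. The 0 of segment 5 allows up to 0.00224 CPM (3 counts over those libraries, counting error only, if each fragment adds 1 count). Base levels were 0.295 ± 0.154 CPM in W30, 0.590 ± 0.533 in D30, 0.287 ± 0.204 in W40 and 0.261 ± 0.293 CPM in D40, which overlapped. Against a floor of 3 counts over the group of segment 6 libraries, the mean base level was 30.7-fold higher in W30, 67.1-fold in D30 and 27.9-fold in W40. These folds are not lower bounds, since a fragment often adds 2 counts and the spread of the base libraries is left out. The adjusted p-values of the base-to-tip change in W30, D30 and W40 were 0.000481, 0.000355 and 0.00128 in edgeR. LOC_Os10g40710 passed the filter on low counts only through libraries of segments 2 to 4, where it is higher. Its base-to-tip calls therefore describe these levels and are not independent of the filter.

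EXPA2 measured 3.29 ± 2.44 CPM at the base and 0.609 ± 0.647 CPM in segment 6 of W30. In D30 its level went from 2.62 ± 1.61 to 0.135 ± 0.0926 CPM, and the base and tip libraries did not overlap. The log2 change was -2.40 (SE 0.65, adjusted p = 0.00359 in edgeR) in W30, -4.40 (SE 0.75, adjusted p = 1.69e-05) in D30, -3.24 in W40 and -1.88 in D40, where the adjusted p of 0.0623 missed the threshold. EXPA4 was flatter in watered leaves, with 4.31 ± 2.29 CPM in segment 2, 4.56 ± 2.23 in segment 3 and 2.15 ± 0.807 CPM in segment 6, a log2 change of -0.90 (adjusted p = 0.145). In D30 it went from 1.84 ± 1.36 to 0.234 ± 0.152 CPM (-2.88, SE 0.55, adjusted p = 9.86e-05), and it was also called in W40 (-1.84) and D40 (-2.46). The difference between the D30 and W30 slopes of EXPA4 was -1.98 (SE 0.71), with an unadjusted p of 0.00754 and an adjusted p of 0.126.

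LOC_Os10g40700 went from 0.495 ± 0.231 to 0.116 ± 0.172 CPM in W30 (-2.72, adjusted p = 0.0257 in edgeR) and from 0.309 ± 0.222 to 0.00659 ± 0.0132 CPM in D30 (-5.28, adjusted p = 0.00152). In W30 the ends overlapped through 1 tip library at 0.374 CPM, and the call was lost without W30 replicate 2, 3 or 4. LOC_Os10g40700 failed the filter when segment 6 was fitted by itself. Its base-to-tip calls therefore describe these levels and are not independent of the filter. EXPA1 was called in D30, at 2.56 ± 2.25 CPM in segment 2 and 0.887 ± 0.853 CPM in segment 6, with a log2 change of -1.58 (SE 0.41, adjusted p = 0.00412). In W30 its change was -1.09 (adjusted p = 0.0553), but it was called lower in 7 of the 16 fits that left out 1 pool (W30 replicate 1 or 2, D30 replicate 2 or any W40 replicate; adjusted p from 0.0175 to 0.0474) and with batch 2 alone (-1.92, adjusted p = 0.00463). EXPA5 and LOC_Os10g40730 passed in no treatment. In D40, EXPA5 was 0.395 ± 0.341 CPM in segment 2, 0.195 ± 0.0575 in segment 4 and 0.303 ± 0.190 CPM in segment 6, with ends that overlapped.

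Several base-to-tip calls rested on 1 pool. The W30 call of EXPA2 was lost without W30 replicate 3 (adjusted p = 0.0626), the W40 call of EXPA4 without W40 replicate 2 (0.188) or 3 (0.182) and its D40 call without D40 replicate 2 (0.0681), and the D30 call of EXPA1 without D30 replicate 2 (0.0578). The LOC_Os10g40700 call was lost in W40 without replicate 3 (0.104) and in D40 without replicate 1 (0.142), 3 (0.141) or 4 (0.0665), and the D40 call of LOC_Os10g40710 without replicate 2 (0.0789). EXPA2 was called in D40 without D40 replicate 4 (0.00817) or W30 replicate 3 (0.0421).

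The slopes were not shown to differ between treatments. For the change of the base-to-tip difference with heat or drought, edgeR called 0 of 8 in each of 4 comparisons (0 also in DESeq2), with 0 to 2 at an unadjusted p below 0.05. Of all genes, 3.52% passed for W40 against W30, 0.188% for D40 against D30, 2.61% for D30 against W30 and 7.05% for D40 against W40. Nor was the decline placed at 1 step: between neighbouring segments of W30, edgeR and DESeq2 called 0 of 32 gene-by-step tests, 2 with an unadjusted p below 0.05. Of all genes, 0.1%, 0.0251%, 0.0251% and 0.0167% passed at the steps from segment 2 to 6.

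**Figure D3:**
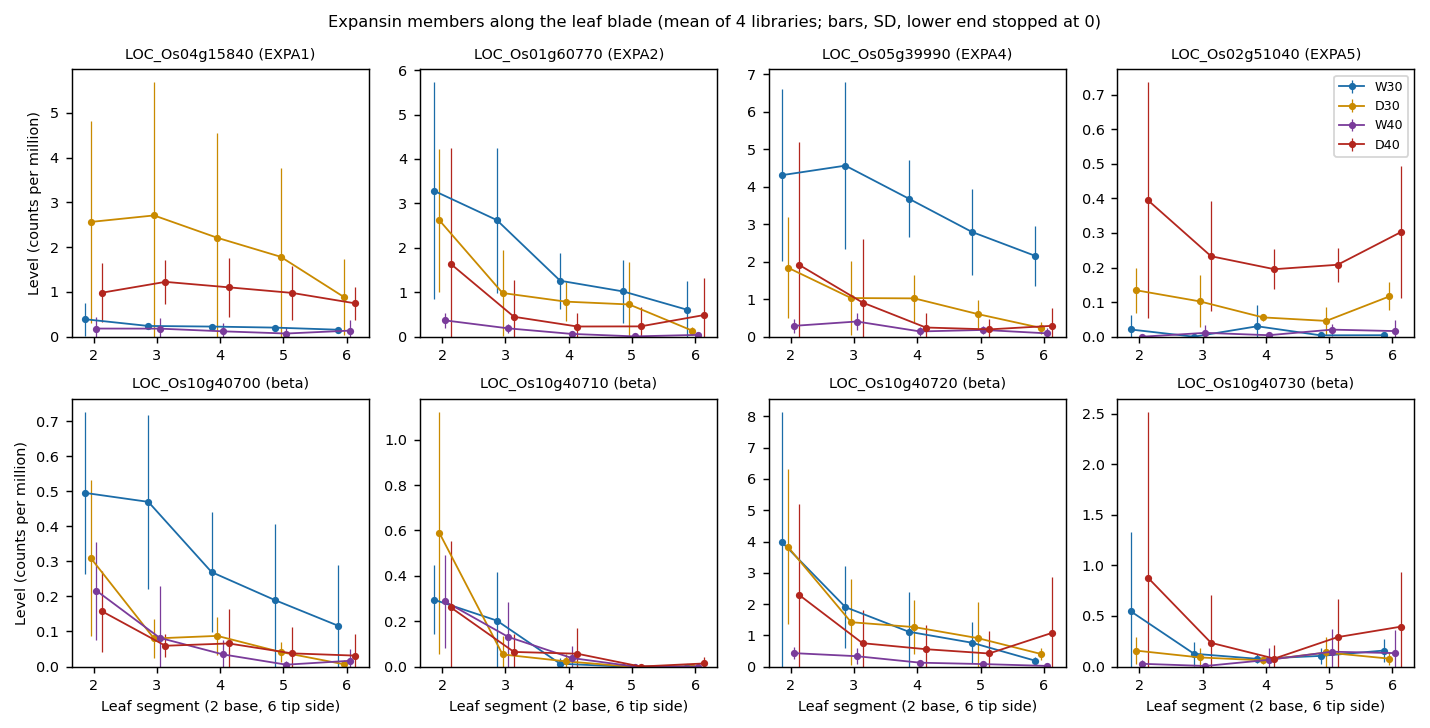
Level of each expansin from segment 2 (base side) to segment 6 (tip side), in CPM, as the mean of 4 libraries per treatment with SD bars whose lower end stops at 0. LOC_Os10g40710 is at 0 in segment 5 in every treatment, LOC_Os10g40720 goes from 3.97 to 0.187 CPM in W30, and EXPA5 in D40 shows no one-way slope.

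**Figure D4:**
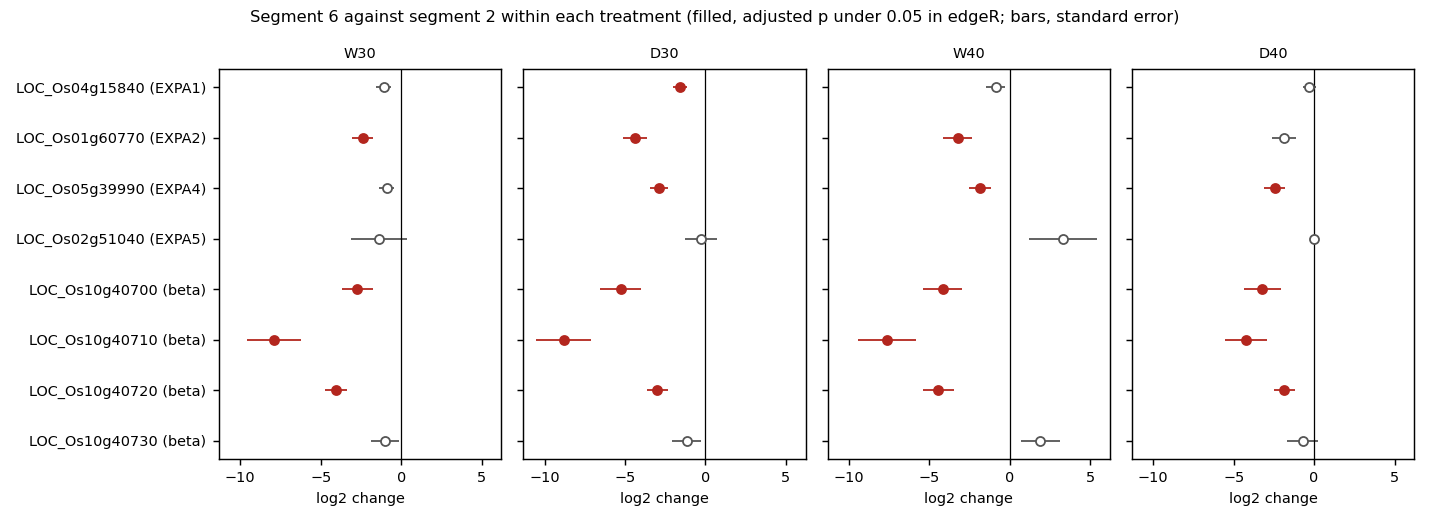
Log2 change of segment 6 against segment 2 for each expansin within each treatment, on a shared axis; bars are standard errors, with none drawn where the change is near 0, and filled points passed an adjusted p of 0.05 in edgeR. All filled points lie below 0, and the fitted values of LOC_Os10g40710 in W30, D30 and W40 rest on segment 6 libraries at 0.

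Tested segment by segment, heat in watered leaves gave lower levels of EXPA4 in every segment and of EXPA2 in all but segment 6. EXPA4 fell in all 5 segments, with log2 changes of -3.84, -3.52, -4.50, -3.97 and -4.88 from segment 2 to 6 and adjusted p between 0.00466 and 0.0443 in edgeR. EXPA2 fell in segments 2 to 5, with log2 changes of -3.03, -3.83, -4.39 and -7.33, the last resting on 2 reads in 4 W40 libraries, and in segment 6 its change of -3.34 had an adjusted p of 0.122. LOC_Os10g40720 fell in segments 2 (-2.62) and 4 (-2.35). That made 11 calls, all lower, out of 32 tests of the expansins that passed each segment's filter: 3 of 8, 2 of 8, 3 of 5, 2 of 5 and 1 of 6 in segments 2 to 6. Of all genes, 31.8%, 32.1%, 25.9%, 27% and 25.9% changed there, so that segments 3 and 6 were below the share of all genes and the total was close to it. The segment 6 call was EXPA4 alone. Leaving out 1 pool gave 5 to 13 calls, the fewest without W30 replicate 3 (5), W40 replicate 3 (6) and W40 replicate 2 (7).

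Drought at 30 °C gave 1 call over the segments: EXPA5 in segment 6, from 0.00433 ± 0.00866 CPM in W30 to 0.117 ± 0.0402 CPM in D30 (log2 change 4.24, SE 1.15, adjusted p = 0.0360 in edgeR). Of all genes, 5.47%, 7.32%, 7.43%, 7.13% and 7.94% changed in segments 2 to 6. Each D30 library of that segment was above each W30 library. The count was 0 without W30 replicate 1, 2 or 4 or D30 replicate 3, and 2 without W40 replicate 1 or 4. In segment 3 EXPA5 had no read in any W30 library and 0.102 ± 0.0753 CPM in D30, with an adjusted p of 0.0729 in edgeR. That D30 mean was 10.2-fold a floor of 3 counts over the W30 libraries, which is not a lower bound. Under heat, drought gave 2 calls, EXPA5 in segment 2 and in segment 6 (the latter with log2 change 4.35, SE 1.06, adjusted p = 0.0190 in edgeR). In segment 2 its D40 mean was 46.2-fold a floor of 3 counts over the W40 libraries, all at 0 there, again not a lower bound. In that comparison 9.11%, 8.11%, 7.45%, 8.1% and 12.9% of all genes changed in segments 2 to 6. That count was 8 without W40 replicate 1, 5 without D40 replicate 1, 4 without D30 replicate 4, 1 without W40 replicate 4, D40 replicate 3 or D40 replicate 4, and 0 without W40 replicate 2 or 3. Heat in droughted leaves gave 0 calls over the segments in edgeR, 2 tests with an unadjusted p below 0.05 and 2 calls in DESeq2. In that edgeR fit with all pools, 25.1%, 27.4%, 28.4%, 29.5% and 28.2% of all genes changed in segments 2 to 6. Without D40 replicate 2 edgeR gave 10 calls, and the share of all genes called in that reduced fit is not given here.

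The rest of the family was scarcely expressed, with a few exceptions. Of 17 other loci listed as alpha expansins, 5 passed the filter, and LOC_Os04g49410 was the most abundant at a mean of 7.82 CPM, above the CPM of each of the 8 chosen loci. It rose in D30 against W30 (log2 change 0.90, SE 0.25, adjusted p = 0.0387 in edgeR), from 6.20 to 11.8 CPM, and was the 1 of those 5 loci called in that comparison; its W40 against W30 difference was not called. LOC_Os01g14660 fell in D40 against W30 (-2.46, adjusted p = 0.00375 in edgeR), from 0.0510 to 0.00802 CPM, with 53 of 80 libraries at 0. The heat comparison in watered leaves called 0 of these 5 and 0 of the 3 other beta expansins that passed out of 14 listed. Of those beta loci, LOC_Os03g01270 fell in D30 against W30 (-1.34, adjusted p = 0.0440 in edgeR). LOC_Os04g44780 fell in D40 against D30 (-2.13, adjusted p = 0.0224 in edgeR), from 0.0388 to 0.00870 CPM, with 40 of 80 libraries at 0. LOC_Os01g14660 and LOC_Os04g44780 were near 0 in D40, so their calls may not be independent of the filter.

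Of 5 expansin-like loci, all passed, and LOC_Os03g04020 was the most abundant at 29.9 CPM. LOC_Os07g31390 rose in D30 against W30 (log2 change 3.31, adjusted p = 0.00169 in edgeR), from 0.105 to 1.41 CPM, and in D40 against W40 (2.11, adjusted p = 0.0140). LOC_Os10g39640 fell in D30 against W30 (-0.95, adjusted p = 0.0488) and was higher in D40 than in D30 (0.86, adjusted p = 0.0327). In W40 against W30 none of the 5 was called. The median log2 change of the expansin-like loci was -0.31 for W40 against W30, and that of the other alpha expansins that passed was -0.99.

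Across the 20 combinations of treatment and segment, 4 of the expansins had like patterns, described here without a test since groups share pools. The mean log2 level of EXPA2 ran with that of LOC_Os10g40720 (Pearson r = 0.92), LOC_Os10g40700 (0.92) and EXPA4 (0.90), and r among these 4 was at least 0.72. EXPA1 ran with EXPA5 (0.76), and LOC_Os10g40710 was nearest to LOC_Os10g40700 (0.72). LOC_Os10g40730 was near none, its highest r being 0.40 (LOC_Os10g40720). Among 17254 loci with a mean of at least 1 CPM, the pattern of EXPA1 was most like that of LOC_Os03g63870 and LOC_Os07g14600 (r = 0.98 for both). For EXPA4 the nearest were LOC_Os05g06340 and LOC_Os06g37560 (both 0.97), for EXPA2 LOC_Os05g28730 and LOC_Os03g43440 (both 0.95) and for EXPA5 LOC_Os11g07911 and LOC_Os11g43790 (both 0.96). For LOC_Os10g40720 they were LOC_Os07g07340 and LOC_Os05g08554 (both 0.96), for LOC_Os10g40700 LOC_Os07g48330 (0.95) and LOC_Os03g20420 (0.94), and for LOC_Os10g40710 LOC_Os12g42610 (0.91) and LOC_Os05g36270 (0.88). LOC_Os10g40730 had no locus as near, the best being LOC_Os12g07780 (0.76) and LOC_Os01g53910 (0.74).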

How the data were processed

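Read counts per gene, not normalized, were deposited by the authors for 80 libraries, with batch-corrected estimated counts (rounded here) and batch-corrected FPKM values, per the file headers. The batch correction and the genome build are not given in the sources used here. Picard 3.1.0, HISAT2 2.2.1 and featureCounts 2.0.6 are listed, per the submitters' processing notes. Of counts from 1 to 20, 76.9% were even, so a fragment often adds 2 to a count. Near-identical expansin copies may split reads, so levels of the chromosome 10 cluster are uncertain. FPKM levels in the text were computed from the raw counts with lengths implied by the authors' FPKM.

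Segments were summed per leaf pool (310494791 to 513401279 reads) and fitted with edgeR 4.0.16 in R 4.3.3 (TMM, filterByExpr with a minimum count of 10 and total of 15, quasi-likelihood test, Benjamini-Hochberg adjustment over all genes tested) with treatment and batch as terms; each segment was fitted likewise. Base and tip were compared over 80 libraries with the pool as a block, since a replicate held matched segments of the same leaves. Deviations of segments of 1 pool from their group means had a median correlation of 0.827, those of different pools of a treatment -0.643. Centring on group means pushes the second value below 0, and segments of 1 pool share a batch. The 2 values therefore do not separate pool from batch. Standard errors were taken as the log2 change over the root of its F statistic. On data simulated for W40 against W30 (25103 genes), 96% of genes changed by 2 on the log2 scale and 23% of those changed by 1 were recovered. Every simulated gene had the same spread (dispersion 0.1) and no batch effect. These shares are therefore not the power for the expansins, whose pools differed widely. Alternatives were DESeq2 1.42.0, median-ratio scaling, no filter, batch-corrected counts, limma 3.58.1 on log2(FPKM + 0.1 or 1), each batch alone, no batch term, a replicate block and leaving out each pool; a treatment by batch test was added after seeing the data.

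The members and lists were chosen with earlier results of these data known. Named were all 8 members, up to 2 loci of each other list per comparison by adjusted p with the most abundant, and the 2 most alike loci per member. List loci were entered by hand from general knowledge: 0 of the files' IDs matched the RefSeq gene table. The names of the alpha members follow the list of members. Nothing in the labels says more of the pools' origin, so p-values measure the spread between pools.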

Additional observations from a re-analysis of the deposited data

Results flagged for a closer look

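In 7 of 32 groups of 4 whole-leaf pools (8 expansins by 4 treatments), 1 pool stood far from the other 3. All of these flags came from D40 replicate 2 or W40 replicate 1. The rule's rate by chance, about 1 in 20, holds for independent groups of normal values. Here the groups share pools and low CPM values are skewed, so the count is not set against that rate. D40 replicate 2 was the high pool for EXPA2 (2.16 CPM), EXPA4 (2.57 CPM), LOC_Os10g40700 (0.179 CPM), LOC_Os10g40720 (3.26 CPM) and LOC_Os10g40730 (1.33 CPM). W40 replicate 1, the 1 batch 1 pool of its treatment, was the high pool for EXPA1 (0.451 CPM) and LOC_Os10g40730 (0.266 CPM).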

How the results depend on the processing

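Of 492 results under alternatives that left no pool out, 419 kept their direction and side of the threshold; with 1 pool left out, 705 of 768 did. Counts of whole-leaf calls (of 8) moved as follows. W40 against W30 gave 4, and 0 with batch 1 alone. D40 against D30 gave 0, but 1 in DESeq2, 1 in limma with no filter and 3 with batch 2 alone. D30 against W30 gave 1, but 2 in DESeq2 and with batch 2 alone, and 0 in limma with a pseudocount of 0.1, with batch 1 alone, with no batch term and with the replicate block. D40 against W40 gave 1, but 2 in DESeq2 and with batch 2 alone, and 0 in limma with a pseudocount of 0.1 or 1 and with batch 1 alone. D40 against W30 gave 2, but 5 in DESeq2 and with batch 2 alone and 1 with batch 1 alone. The interaction gave 0, and 1 with batch 2 alone.

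Over the segments, W40 against W30 gave 11 calls and 1 with batch 1 alone. D40 against D30 gave 0, but 2 in DESeq2, 3, 1 and 2 in limma (pseudocount 0.1, pseudocount 1, no filter), 1 with batch 1 alone and 11 with batch 2 alone. D30 against W30 gave 1, but 7 in DESeq2, 3 and 4 in limma (pseudocount 0.1 and 1), 0 with batch 1 alone, 7 with batch 2 alone and 0 with no batch term. D40 against W40 gave 2, but 8 in DESeq2, 4 with no filter, 0, 0 and 4 in limma, 0 with batch 1 alone, 10 with batch 2 alone, 0 with no batch term and 1 with the replicate block. From base to tip, the counts without the replicate block (the pool) were 2 in W30, 3 in D30, 3 in W40 and 0 in D40; limma with a pseudocount of 1 gave 1 in W40 and 2 in D40, batch 1 alone 0 in W40 and 2 in D40, and batch 2 alone 0 in D40. The D30 against W30 difference of slopes gave 1 with batch 1 alone.

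With 1 pool left out, whole-leaf counts ranged from 2 to 4 (W40 against W30), 0 to 3 (D40 against D30), 0 to 2 (D30 against W30), 1 to 2 (D40 against W40), 1 to 5 (D40 against W30) and 0 to 0 (interaction). Segment counts ranged from 5 to 13, 0 to 10, 0 to 2 and 0 to 8 in the first 4 of these comparisons. Base-to-tip counts ranged from 2 to 5 (W30), 5 to 6 (D30), 3 to 5 (W40) and 2 to 5 (D40), and the slope differences and steps stayed at 0. Same-numbered pools of different treatments had correlated deviations in 21 of 24 pairs, and these pairs were all within a batch. The pairs across batches, W40 replicate 2 with replicate 2 of W30, D30 and D40, had correlations of -0.407, -0.473 and -0.567. Only 6 of 16 pools correlated best with their own number, so the number was not taken as a pairing.

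Several log2 changes, none of them called in the main test, took the opposite sign under an alternative; the cause was not tested. For EXPA1 this was W40 against W30 (0.51 with batch-corrected counts, 0.0067 in limma with a pseudocount of 1, 1.21 with batch 1 alone), D40 against D30 (0.38, 0.050 and 1.00 under the same settings, 0.22 in limma with a pseudocount of 0.1 or no filter) and the interaction (0.043, 0.55 and 0.55 in limma with a pseudocount of 1, 0.1 and no filter, 1.89 with batch 2 alone, 0.40 with the replicate block). For LOC_Os10g40700, D40 against W40 was 0.057 with batch-corrected counts, 1.29 with batch 1 alone and 0.14 with no batch term, and D40 against D30 was 0.10 with batch 1 alone. With batch 1 alone EXPA4 was 0.58 in D40 against D30 and LOC_Os10g40720 was -0.31 in D30 against W30. With batch 2 alone EXPA5 was 0.14 in W40 against W30, and D40 against W40 was -0.30 for EXPA2, -1.29 for EXPA4 and -0.089 for LOC_Os10g40730. LOC_Os10g40730 was also -1.99 (D40 against D30), 0.10 (D30 against W30), -1.88 (D40 against W30) and -0.19 (interaction) with batch 2 alone, and -0.020 and -0.17 in limma with no filter (D40 against D30 and against W30). LOC_Os10g40710 was 0.45 (W40 against W30), 1.39 (D30 against W30), 0.88 (D40 against W30) and -0.96 (interaction) with batch 2 alone, 0.14 (D30 against W30) and -0.021 (interaction) in limma with no filter, 0.46 and -0.46 for the same with no batch term, and -0.39 (D40 against W40) with the replicate block.

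Leaving out 1 pool, uncalled changes that crossed 0 ranged from -0.66 to 0.31 for EXPA5 (W40 against W30), from -3.26 to 0.0063 (D40 against D30) and -1.12 to 1.87 (D40 against W40) for EXPA4, from -0.20 to 2.22 for EXPA2 (D40 against W40), from -0.59 to 3.51 for EXPA1 (interaction), from -0.83 to 0.68 for LOC_Os10g40720 (D30 against W30) and from -0.83 to 0.22 for LOC_Os10g40700 (D40 against W40). For LOC_Os10g40730 they ranged from -1.09 to 1.42 (D40 against D30), -1.53 to 0.059 (D30 against W30), -0.25 to 1.87 (D40 against W40) and -1.52 to 0.50 (D40 against W30), and for LOC_Os10g40710 from -1.13 to 1.23 (D30 against W30), -0.043 to 0.75 (D40 against W40), -1.85 to 0.47 (D40 against W30) and -0.57 to 1.68 (interaction). With few reads per pool for EXPA5 and the lower beta expansins, counting limits their folds.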
